A study of Rattus norvegicus with 12 samples.

Results

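The genes described here encode 10 proteins of the Z-disc and the intercalated disc of heart muscle: Xirp1, Xirp2, Enah, Flnc, Csrp3, Ankrd1, Ankrd2, Fhl1, Fhl2 and Lmcd1. They were taken by gene name from the array's own annotation, which gave 12 probes for these 10 genes, among 30367 probes and 22079 named genes on the array. The cells were cardiomyocytes isolated from newborn rats and kept for 24 h in medium with 10% fetal calf serum on collagen-coated silicone membranes. Groups of 3 arrays each came from cells under pulsatile biaxial stretch with 20% elongation for 2, 6 or 24 h and from unstretched control cells on the same kind of membrane. The series states that the 3 arrays of a group are biological replicates, but not whether they came from separate isolations. One control group serves all 3 times and the labels give it no time of its own, so time in culture and time under stretch cannot be told apart.

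The Z-disc anchors the actin filaments of neighbouring sarcomeres, and the intercalated disc joins neighbouring cardiomyocytes through adhesion junctions to which the outermost actin filaments are tied. Both carry force at each beat. Several of their proteins also move to the nucleus or bind signalling enzymes, and they are studied as places where a heart cell senses load. Xirp1 and Xirp2 (the Xin proteins) bind and bundle actin at the intercalated disc. Enah (Mena) speeds the growth of actin filaments and Flnc (filamin C) crosslinks them. Csrp3 (muscle LIM protein), Fhl1, Fhl2 and Lmcd1 (dyxin) are LIM-domain proteins, and Ankrd1 and Ankrd2 are ankyrin-repeat proteins that bind titin and also act in the nucleus.

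Each array was read in 1 colour, and a value below is the processed intensity of a probe as a multiple of that array's 75th percentile. That percentile lay between 1138 and 1672 intensity units over the 12 arrays, 64.7% to 70.64% of spots were well above background, and no spot was saturated. A level cannot be compared between genes on this scale, because probes differ in brightness; only changes of 1 probe between groups are compared. Changes were tested on the log2 scale with limma over 14376 genes, and a gene was called at a Benjamini-Hochberg adjusted p below 0.05. The arrays lay on 2 slides: all control and 2 h arrays and 6 h replicates 1 and 2 on the first, and 6 h replicate 3 and all 24 h arrays on the second. No 24 h array therefore shared a slide with a control array. Values or counts with slide in the model are given beside many 24 h results, and a result shown without one can also have moved. That model takes the slide difference from the 6 h group alone, whose only array on the second slide is replicate 3. Its 24 h values against control therefore rest on that array and do not settle how much slide contributed. Among the other settings tried, spike-in scaling sets each array by 7 control probes for RNA added in known amounts, in place of the 75th percentile.

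Of the 10 genes, 9 were above background and tested. In stretched cells 6 of these 9 were called higher than in control cells at 2 h, 7 at 6 h and 8 at 24 h, and none was called lower at any time. The median change of the 9 was 0.25 at 2 h, 0.52 at 6 h and 0.98 at 24 h on the log2 scale, where the median over all genes tested was -0.01, -0.05 and -0.08. Among all 14376 genes, 3.10% were called higher at 2 h, 4.88% at 6 h and 16.0% at 24 h. Either direction together made up 9.34%, 16.9% and 47.9% of genes at these times. With slide in the model 6 of the 9 were called higher at 24 h and 0 lower. That model called 2044 genes at 24 h in either direction, in place of 6888. Stretched and control arrays did not overlap for 7 of the 9 at 2 h, all 9 at 6 h and 8 at 24 h, each time with the stretched arrays higher. Over all genes there was no such overlap, in either direction, for 28.5%, 39.5% and 58.8% at these times. Xirp2, Enah, Lmcd1 and Fhl1 were called and at least 2-fold higher at 24 h, a condition met by 80 genes or 0.556% of those tested. With slide in the model Lmcd1 and Fhl1 each changed by 0.98 on the log2 scale, just under 2-fold. The share of all genes was not counted in that model. Ankrd1, Csrp3, Enah, Flnc and Lmcd1 were called higher at all 3 times, as were 1.38% of genes. With slide in the model Ankrd1 was not called at 24 h (adjusted p = 0.177) and Csrp3 was not called at 2 h (adjusted p = 0.065). The 10 genes and the lists below were chosen with earlier results of these data known. The contrasts with all genes and between lists are therefore descriptions and no test.

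**Figure D1:**
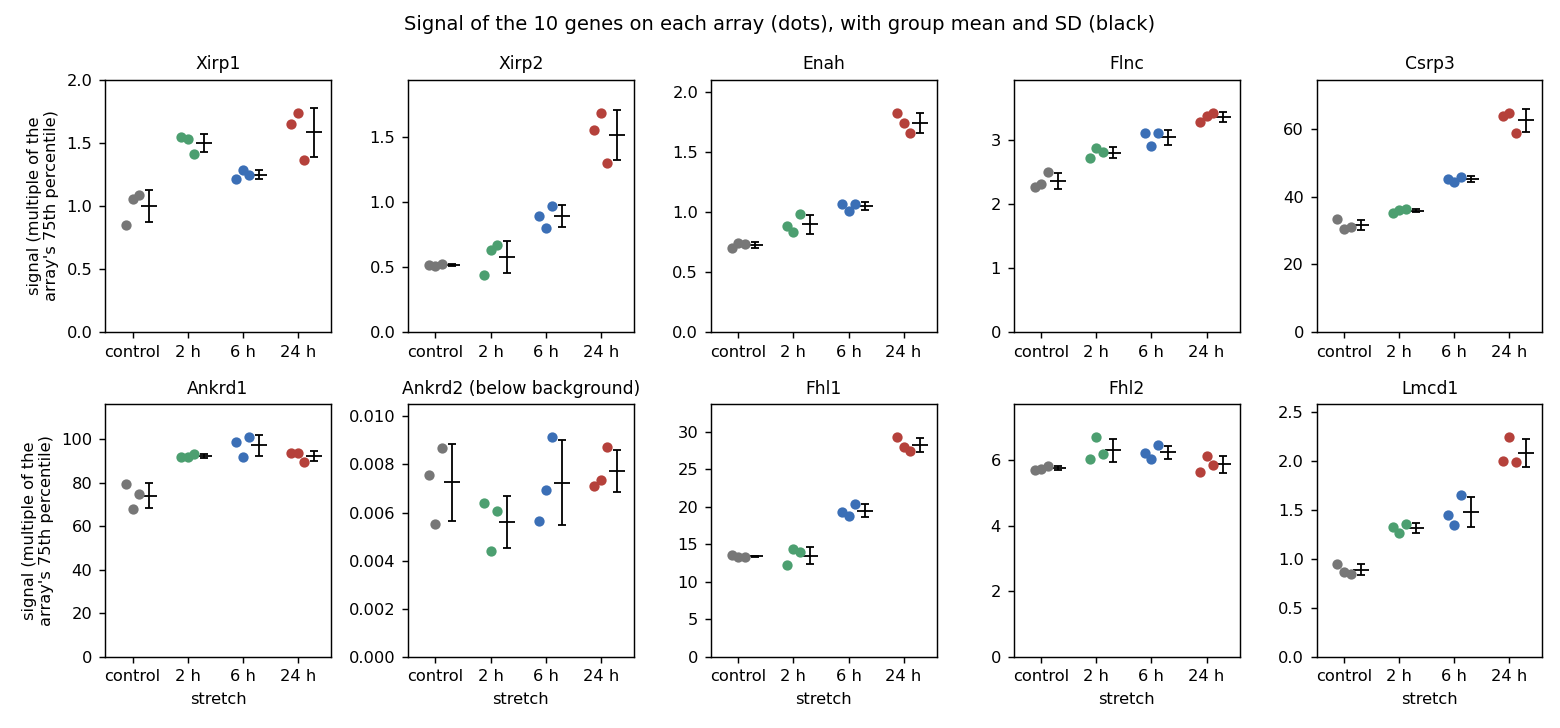
Processed intensity of each of the 10 genes on the 12 arrays, as a multiple of the array's 75th percentile, with each axis starting at 0; dots are arrays, and the black marks are the group mean and SD (n = 3). Enah, Flnc and Csrp3 climb without overlap from each group to the next, Ankrd1 stays level after 2 h, Fhl2 moves little, and Ankrd2 (below background) shows no level.

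The Xin proteins differed in when they were called: Xirp1 at 2 h and 24 h, and Xirp2 at 6 h and 24 h. Xirp1 read 1.55, 1.53 and 1.42 multiples at 2 h, 1.21, 1.29 and 1.25 at 6 h, and 1.65, 1.74 and 1.37 at 24 h, against 0.852, 1.05 and 1.09 in control cells. Every stretched array lay above every control array, and the 6 h arrays lay below all 2 h and all 24 h arrays. Xirp1 rose at 2 h by 0.60 ± 0.10 (log2, SE, adjusted p = 0.00775) and stood higher at 24 h by 0.67 ± 0.10 (adjusted p = 4.52e-04). With slide in the model the adjusted p at 24 h was 0.0506, for a change of 0.67. The 6 h change of 0.33 ± 0.10 was not called (adjusted p = 0.0516), and it was called under 5 other settings, among them centring on the array median (adjusted p = 0.0167). The drop between 2 h and 6 h of -0.26 ± 0.10 was not called either (adjusted p = 0.130). Between 6 h and 24 h Xirp1 rose by 0.34 ± 0.10 (adjusted p = 0.0372), a call lost under 8 of 13 other settings and in 5 of 6 fits that left out 1 array. A second probe of Xirp1 gave 0.54, 0.30 and 0.55 at 2, 6 and 24 h, beside 0.60, 0.33 and 0.67 for the probe used.

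Xirp2 read 0.437, 0.632 and 0.669 multiples at 2 h, 0.896, 0.802 and 0.972 at 6 h, and 1.56, 1.69 and 1.30 at 24 h, against 0.516, 0.512 and 0.522 in control cells. At 2 h the first array was below all control arrays and the other two above them, while all 6 h and 24 h arrays were above. The 2 h change of 0.14 ± 0.15 was not called (adjusted p = 0.611, 95% interval -0.19 to 0.47). Xirp2 then rose by 0.78 ± 0.15 at 6 h (adjusted p = 0.00674) and by 1.55 ± 0.15 at 24 h (adjusted p = 2.02e-05), which is 2.92-fold and the 14th highest change among 14376 genes. With slide in the model the 24 h change was 1.35 and remained called (adjusted p = 0.0111). The step from 2 h to 6 h was 0.64 ± 0.15 (adjusted p = 0.0261), and without 2 h replicate 1, the low array, it was 0.45 (adjusted p = 0.0503). That call was lost under 4 of 13 other settings and in 3 of 6 fits that left out 1 array. The step from 6 h to 24 h was 0.76 ± 0.15 (adjusted p = 0.00437), and 0.63 with slide in the model (adjusted p = 0.112). Xirp1 had thus reached 0.60 at 2 h, when Xirp2 was at 0.14; the difference between the courses of these genes was not tested.

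Promoter windows of 250 bases before to 50 after the transcript start were taken from RefSeq (build GRCr8) for 8 of the 10 genes, in 13 windows. The windows of these paralogues are shown because both hold an AP-1 match (TGANTCA, the same on both strands) and a MEF2 site, in capitals in that order. Of the 3 Xirp1 windows 1 is printed (chr8:128634962-128635261, minus strand); a second overlaps it and holds the same matches, and the third (chr8:128633105-128633404) holds neither. The Xirp2 window is chr3:72533936-72534235, plus strand.
Xirp1: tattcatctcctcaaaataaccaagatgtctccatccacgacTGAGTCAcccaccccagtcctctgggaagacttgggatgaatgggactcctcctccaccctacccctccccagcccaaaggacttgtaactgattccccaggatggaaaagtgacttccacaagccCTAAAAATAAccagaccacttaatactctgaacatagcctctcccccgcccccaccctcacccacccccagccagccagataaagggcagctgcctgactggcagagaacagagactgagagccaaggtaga
Xirp2: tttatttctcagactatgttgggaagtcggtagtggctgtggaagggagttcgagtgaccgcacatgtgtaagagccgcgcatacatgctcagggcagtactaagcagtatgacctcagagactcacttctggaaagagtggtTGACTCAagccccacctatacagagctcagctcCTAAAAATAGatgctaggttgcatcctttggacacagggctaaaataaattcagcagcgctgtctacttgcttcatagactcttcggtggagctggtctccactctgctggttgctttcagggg
The AP-1 match starts 208 bases before the start site in Xirp1 and 107 bases before it in Xirp2, and the MEF2 match 82 and 74 bases before it. AP-1 matches occur in 7.33% of all 33469 windows, MEF2 matches in 3.29% and both together in 0.329%. Of the 8 genes with a window, 2 held an AP-1 match and 3 a MEF2 match. The windows of Enah and Lmcd1 held neither. A match in letters is a description and shows no binding.

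Enah had a larger measured change than Flnc at each time, by little at 2 h (0.30 and 0.25). The difference between these genes was not tested. Enah read 0.879, 0.831 and 0.979 multiples at 2 h, 1.06, 1.01 and 1.07 at 6 h, and 1.83, 1.74 and 1.66 at 24 h, against 0.696, 0.745 and 0.733 in control cells. Each group lay wholly above the one before it in time, and the lowest 24 h array was above every 6 h array. The change was 0.30 ± 0.06 at 2 h (adjusted p = 0.0179), 0.53 ± 0.06 at 6 h (adjusted p = 9.54e-04) and 1.26 ± 0.06 at 24 h (adjusted p = 4.79e-07), the last being 2.40-fold. The 24 h change was 1.22 with slide in the model (adjusted p = 5.57e-04). The 2 h call was lost within slide 1 alone (adjusted p = 0.0507), with only these 2 groups in the fit (0.0786), with spike-in scaling (0.301) and without control replicate 1 (0.0551). The rise between 6 h and 24 h of 0.73 ± 0.06 was called (adjusted p = 3.03e-05) under all 13 other settings too, while that between 2 h and 6 h (0.23 ± 0.06, adjusted p = 0.0490) was lost under 7 of 13.

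Flnc read 2.72, 2.88 and 2.82 multiples at 2 h, 3.11, 2.91 and 3.12 at 6 h, and 3.29, 3.38 and 3.43 at 24 h, against 2.26, 2.31 and 2.50 in control cells. Its groups also followed one another in time without overlap, but neither step between neighbouring times was called. The step was 0.12 ± 0.05 from 2 h to 6 h (adjusted p = 0.160) and 0.14 ± 0.05 from 6 h to 24 h (adjusted p = 0.0656). The changes were 0.25 ± 0.05 at 2 h (adjusted p = 0.0152), 0.37 ± 0.05 at 6 h (adjusted p = 0.00147) and 0.51 ± 0.05 at 24 h (adjusted p = 2.68e-05), or 1.43-fold. Within slide 1 alone the 2 h change missed the threshold (adjusted p = 0.0522), as it did with only these 2 groups in the fit (0.0779), with spike-in scaling (0.424) and without control replicate 2 (0.0569). Flnc at 24 h exceeded Flnc at 2 h by 0.26 ± 0.05 (adjusted p = 0.00203), or by 0.21 with slide in the model (adjusted p = 0.183).

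Paralogues of these proteins were called in both directions at 24 h, 1 higher and 3 lower of 9 tested. Over all genes 47.9% were called at that time, and 66.5% of those calls were lower. Flna, a more widely expressed relative of Flnc, changed at 24 h by -0.38 ± 0.08 (adjusted p = 0.00323), and Evl, a relative of Enah, by -0.25 ± 0.04 (adjusted p = 8.01e-04). Both falls depended on the scaling: with spike-in scaling Flna and Evl stood at 0.03 and 0.15. Vasp, the third member of the Enah family, changed by 0.08 ± 0.07 and was not called (adjusted p = 0.410). Of a list of 10 paralogues, 9 were tested: none was called at 2 h, Csrp2 alone was higher at 6 h (0.32 ± 0.07, adjusted p = 0.0151), and at 24 h 1 was higher (Fhl3, 0.19 ± 0.06, adjusted p = 0.0198) and 3 were lower, Flna and Evl among them. With spike-in scaling 3 were higher and 0 lower at 24 h. Slide in the model left 0 higher and 1 lower (Evl, -0.29, adjusted p = 0.0406), and Fhl3 (0.10, adjusted p = 0.577) and Flna (-0.31, adjusted p = 0.206) were not called. The median of the 9 paralogues was 0.05, -0.07 and -0.11 at 2, 6 and 24 h.

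Among the LIM proteins Csrp3, Fhl1 and Lmcd1 were called higher, and Fhl2 was not called at any time. Csrp3, which binds telethonin and alpha-actinin at the Z-disc, read 35.3, 36.0 and 36.3 multiples at 2 h, 45.3, 44.3 and 46.0 at 6 h, and 64.0, 64.8 and 58.7 at 24 h, against 33.3, 30.5 and 31.0 in control cells. All 4 groups were separate and in order. Csrp3 rose by 0.52 ± 0.05 at 6 h (adjusted p = 5.96e-04) and by 0.98 ± 0.05 at 24 h (adjusted p = 5.26e-07), which is 1.98-fold. Its 2 h change of 0.19 ± 0.05 lay at the threshold (adjusted p = 0.0476) and missed it under 9 of 13 other settings and in 5 of 6 fits that left out 1 array. The steps from 2 h to 6 h (0.33 ± 0.05, adjusted p = 0.00719) and from 6 h to 24 h (0.47 ± 0.05, adjusted p = 1.23e-04) were both called. With spike-in scaling neither was, at 0.60 (adjusted p = 0.0738) and 0.41 (adjusted p = 0.271). Within slide 2 alone, which holds a single 6 h array, the later step was 0.44 (adjusted p = 0.109).

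Fhl1, which binds titin and takes part in growth signalling at the sarcomere, read 12.3, 14.4 and 13.9 multiples at 2 h, 19.4, 18.8 and 20.4 at 6 h, and 29.3, 28.0 and 27.5 at 24 h, against 13.5, 13.4 and 13.4 in control cells. The 2 h arrays lay on both sides of the control arrays, and all later arrays lay above. The change was 0.01 ± 0.06 at 2 h (adjusted p = 0.960), with a 95% interval of -0.13 to 0.14. It was 0.54 ± 0.06 at 6 h (adjusted p = 8.41e-04) and 1.07 ± 0.06 at 24 h (adjusted p = 8.31e-07), or 2.10-fold. Both steps between times were called, 0.53 ± 0.06 from 2 h to 6 h (adjusted p = 0.00259) and 0.53 ± 0.06 from 6 h to 24 h (adjusted p = 1.65e-04). With spike-in scaling the later step was 0.48 and not called (adjusted p = 0.147). A second Fhl1 probe gave 0.01, 0.53 and 1.20 at the 3 times. Within slide 2 alone, where the single 6 h array is assumed to vary like the 24 h arrays, the later step was 0.47 (adjusted p = 0.0784).

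Lmcd1, which activates calcineurin signalling in heart muscle of mice and represses GATA6, rose at every time. It read 1.32, 1.26 and 1.36 multiples at 2 h, 1.45, 1.34 and 1.65 at 6 h, and 2.00, 2.24 and 1.99 at 24 h, against 0.950, 0.866 and 0.846 in control cells. Stretched and control arrays were separate at each time, while the 2 h and 6 h arrays overlapped. The changes were 0.57 ± 0.08 at 2 h (adjusted p = 0.00337), 0.73 ± 0.08 at 6 h (adjusted p = 8.41e-04) and 1.22 ± 0.08 at 24 h (adjusted p = 1.94e-06), or 2.34-fold at 24 h. With slide in the model the 24 h change was 0.98 (adjusted p = 0.00129). The step from 6 h to 24 h was 0.49 ± 0.08 (adjusted p = 0.00160), and 0.33 with slide in the model (adjusted p = 0.0691). With spike-in scaling that step was 0.44 and not called (adjusted p = 0.217).

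Fhl2, a LIM protein that binds titin and also damps calcineurin signalling, read 6.03, 6.70 and 6.19 multiples at 2 h, 6.22, 6.04 and 6.45 at 6 h, and 5.63, 6.13 and 5.85 at 24 h, against 5.71, 5.72 and 5.81 in control cells. The 2 h and 6 h arrays stood above all control arrays by a narrow margin, and the 24 h arrays overlapped them. The changes were 0.13 ± 0.05 (adjusted p = 0.151), 0.12 ± 0.05 (adjusted p = 0.152) and 0.03 ± 0.05 (adjusted p = 0.675) at 2, 6 and 24 h. Their 95% intervals ran from 0.02 to 0.25, from 0.00072 to 0.23 and from -0.09 to 0.14, so the 24 h interval ended below the changes of the 8 called genes. Over all 4 groups Fhl2 did not pass the moderated F test (adjusted p = 0.117), which 52.8% of genes passed. Fhl2 was called at 24 h when arrays were centred on their median (0.23, adjusted p = 0.00611), and at 6 h with that centring (0.21, adjusted p = 0.0260) and with spike-in scaling (0.58, adjusted p = 0.0235).

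The Enah, Lmcd1 and Fhl2 probes are printed to show what was hybridised for a pair of the strongest changes and for the gene that was not called. On rat build rn4, per the array annotation, the Enah probe runs from chr13:97927840-97932050 and the Fhl2 probe from chr9:42326985-42337310, both on the minus strand, so each joins sequence across an intron; the Lmcd1 probe lies at chr4:148129792-148129851 on the plus strand.
Enah: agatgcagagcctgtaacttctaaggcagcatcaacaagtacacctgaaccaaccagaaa
Lmcd1: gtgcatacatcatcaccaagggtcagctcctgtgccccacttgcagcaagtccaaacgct
Fhl2: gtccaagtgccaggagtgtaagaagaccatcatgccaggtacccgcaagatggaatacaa
The Fhl2 promoter window, chr9:52954491-52954790 on the minus strand of GRCr8, is shown as that of the gene that was not called.
Fhl2: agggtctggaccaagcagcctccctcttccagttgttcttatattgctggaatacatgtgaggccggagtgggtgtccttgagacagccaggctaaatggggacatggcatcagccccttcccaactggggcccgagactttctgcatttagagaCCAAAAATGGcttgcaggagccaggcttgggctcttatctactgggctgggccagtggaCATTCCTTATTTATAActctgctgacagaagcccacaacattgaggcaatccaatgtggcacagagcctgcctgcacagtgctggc
Capitals mark a CArG box 95 bases before the start site and then an MCAT element (CATTCC, searched on both strands) 36 bases before it, which adjoins without overlap a MEF2 match 30 bases before it. CArG boxes occur in 1.64% of all windows and MCAT elements in 14.2%. A second Fhl2 window and 1 of the 2 Fhl1 windows also held a CArG box, and the Flnc window held an MCAT element 121 bases before its start.

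Of the ankyrin-repeat genes only Ankrd1 was measured above background. Ankrd1 (CARP) read 91.8, 92.0 and 93.4 multiples at 2 h, 98.8, 91.9 and 100.9 at 6 h, and 93.8, 93.8 and 89.6 at 24 h, against 79.5, 68.1 and 74.6 in control cells. All 9 stretched arrays lay above all 3 control arrays, and the 3 stretched groups overlapped each other. Ankrd1 rose by 0.32 ± 0.06 at 2 h (adjusted p = 0.00999), 0.39 ± 0.06 at 6 h (adjusted p = 0.00238) and 0.32 ± 0.06 at 24 h (adjusted p = 0.00142). Its 24 h and 2 h values differed by -0.00051 ± 0.06 (adjusted p = 0.995), with a 95% interval of -0.13 to 0.13. At 24 h slide made a difference to the call: with slide in the model the change was 0.24 (adjusted p = 0.177). The 2 h call was lost with quantile normalization (0.25, adjusted p = 0.0704), with spike-in scaling (0.52, adjusted p = 0.261) and with only these 2 groups in the fit (0.32, adjusted p = 0.0591). Ankrd2 read between 0.00438 and 0.00913 multiples and was well above background on 0 of 12 arrays, so it has no fold here.

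**Figure D2:**
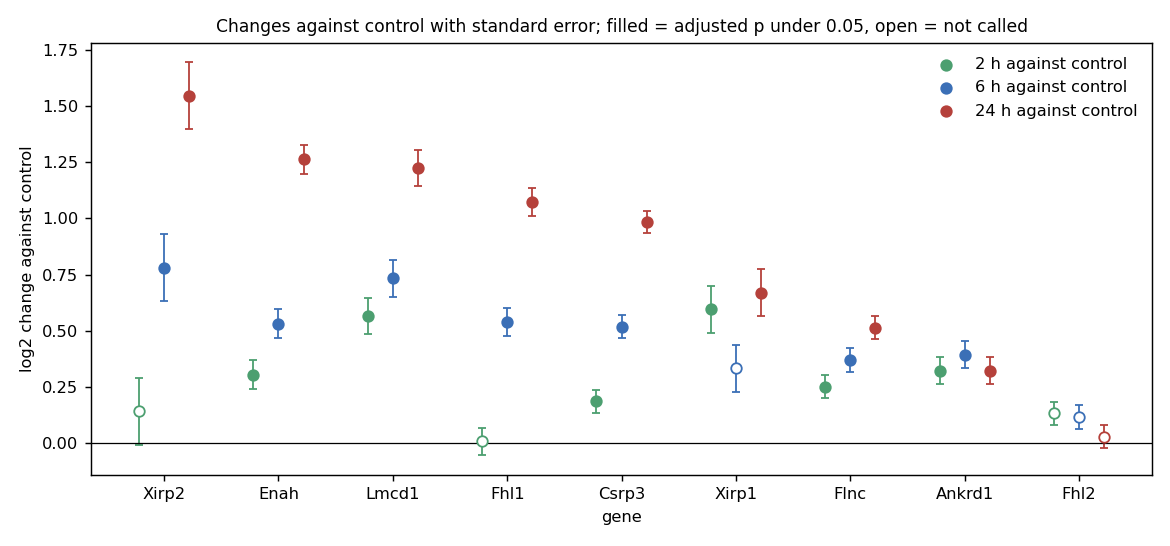
Log2 change against control (vertical axis, with SE, n = 3 arrays per group) of the 9 tested genes after 2, 6 and 24 h of stretch, ordered by the 24 h change; filled symbols passed an adjusted p of 0.05 and open ones did not. Xirp2, Enah, Lmcd1, Fhl1 and Csrp3 have their highest value at 24 h (0.98 to 1.55), Ankrd1 stays between 0.32 and 0.39, and Fhl2 has 3 open symbols.

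Between the stretch times, 4 of the 9 genes rose from 2 h to 6 h (Xirp2, Enah, Csrp3 and Fhl1), 6 from 6 h to 24 h (these 4 with Xirp1 and Lmcd1) and 6 from 2 h to 24 h (Xirp2, Enah, Flnc, Csrp3, Fhl1 and Lmcd1). None fell by the test in any of the 3. In these comparisons 2, 3 and 4 genes rose with slide in the model, and Lmcd1 from 2 h to 24 h (0.66 ± 0.08 as reported) was 0.42 and not called (adjusted p = 0.0525). Over all genes 3.71%, 9.71% and 18.0% were called higher in these comparisons, and 10.6%, 24.9% and 48.3% in either direction. Enah, Flnc and Csrp3 were the members in which control, 2 h, 6 h and 24 h arrays followed one another with no overlap, an order found for 89 genes or 0.619% of those tested. Comparisons with a common group share arrays, so they are not independent.

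The other genes of both structures, from lists made by hand with earlier results of these data known, went in both directions at 24 h. Of 26 other Z-disc genes 22 were tested, and 5 were higher and 0 lower at 2 h, 5 and 0 at 6 h, and 7 and 6 at 24 h. Their median changes were 0.08, 0.11 and 0.03. Over all genes 3.10%, 4.88% and 16.0% were called higher at these times, and 9.34%, 16.9% and 47.9% in either direction. At 2 h the largest were Bag3, a co-chaperone that clears damaged filamin (0.49 ± 0.09), and Pdlim3, a PDZ-LIM protein that binds alpha-actinin (0.39 ± 0.08), with adjusted p of 0.00837 and 0.0177. Trim63 (MuRF1), a ubiquitin ligase, and Pdlim7, another PDZ-LIM protein, followed with 0.23 and 0.22, and with slide in the model their adjusted p were 0.0598 and 0.0506. At 6 h Pdlim3 (0.77 ± 0.08) and Cavin4 (0.53 ± 0.13), a caveolar coat protein of muscle, were the largest, before Bag3 (0.31) and Smpx (0.26). With slide in the model the adjusted p at 6 h were 0.0603 for Cavin4 and 0.0610 for Smpx. At 24 h Cavin4 reached 1.14 ± 0.13 (adjusted p = 4.88e-05) and Pdlim3 0.75 ± 0.08 (adjusted p = 5.41e-05). Fbxl22, an F-box protein of the Z-disc, fell by 0.94 ± 0.06 (adjusted p = 1.89e-06) and Myoz1, a calcineurin-binding calsarcin, fell by 0.91 ± 0.13 (adjusted p = 2.51e-04), or -0.57 with slide in the model (adjusted p = 0.0925). The split into higher and lower calls at 24 h was 14 and 5 with centring on the array median, 10 and 2 with spike-in scaling and 3 and 2 with slide in the model. At 6 h the split was 11 and 0, 16 and 0, and 2 and 0 in the same order.

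All 25 genes of the intercalated disc list were tested, and 2 were higher and 0 lower at 2 h, 4 and 4 at 6 h, and 3 and 10 at 24 h. Their median changes were -0.002, -0.01 and -0.06. Over all genes 3.10%, 4.88% and 16.0% were called higher at these times, and 9.34%, 16.9% and 47.9% in either direction. Of all calls at 24 h, 66.5% were lower. Lims2 (PINCH-2), an adaptor of integrin signalling, was higher by 0.41 ± 0.09 at 2 h and 0.49 ± 0.09 at 6 h, and Jup (plakoglobin), a desmosome and adherens junction protein, by 0.25 ± 0.05 at 2 h. At 6 h Pdlim2, a PDZ-LIM protein, was lower (-0.61 ± 0.07) and so was Ctnna3 (alpha-T-catenin), with -0.33 ± 0.06, while Nrap, an actin-binding scaffold, was higher (0.27 ± 0.04). At 24 h Ctnna3 fell by 0.64 ± 0.06 (adjusted p = 2.64e-05), Pdlim2 by 0.61 ± 0.07 and Gja1 (connexin 43), the main ventricular gap junction protein, by 0.46 ± 0.05 (adjusted p = 4.32e-05). Dsc2, a desmosomal cadherin, rose by 0.49 ± 0.16 (adjusted p = 0.0268). The 24 h split of 3 higher and 10 lower was 0 and 3 with slide in the model, where Dsc2 was no longer called (0.52, adjusted p = 0.283) and Ctnna3, Pdlim2 and Gja1 were. It turned round with scaling, to 11 and 3 with centring on the array median and to 5 and 0 with spike-in scaling, where Ctnna3 at 6 h stood at 0.13. The 6 h split of 4 and 4 was 6 and 2 with centring on the array median. It was 10 and 0 with spike-in scaling and 3 and 2 with slide in the model. For the 9 tested members the split at 24 h was 8 and 0. It was 9 and 0 with centring on the array median, 8 and 0 with spike-in scaling and 6 and 0 with slide in the model.

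**Figure D3:**
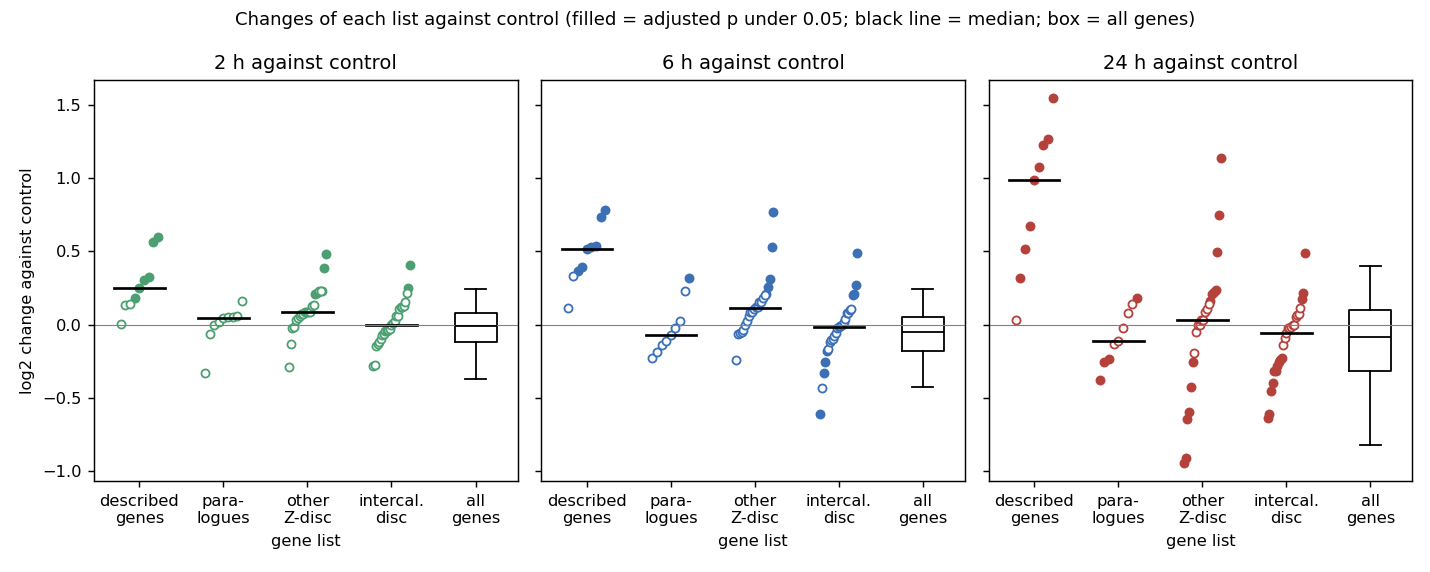
Log2 change against control at 2, 6 and 24 h (panels) of the 9 tested genes, 9 tested paralogues, 22 other Z-disc genes and 25 intercalated disc genes, each dot a gene, filled where the adjusted p was under 0.05, with the list median as a black line; the box at the right gives the quartiles of all 14376 genes and its whiskers the 5th and 95th percentiles. The median of the described genes is 0.25, 0.52 and 0.98, while the other lists' medians stay between -0.11 and 0.11.

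The genes whose 3 changes lay nearest to a member's were found over all genes that passed the F test, by the root mean square difference of the 2, 6 and 24 h log2 changes. Nearest to Xirp1 were Mafk, a small Maf transcription factor (0.06), and Lmod2, which nucleates thin filaments (0.09), and nearest to Xirp2 were Gal, the peptide galanin (0.06), and Slc16a6 (0.18). Plk2, a polo-like kinase, lay nearest to Enah among genes with a name (0.05), and Heatr1, a ribosome biogenesis factor, to Flnc (0.02). For Csrp3 these were Mllt11 (0.04) and Cldn1, a claudin (0.06), which was also the named gene nearest to Fhl1 (0.08). The value was computed over the same arrays in each case, on 3 changes that share the control group.

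Marker genes of cell types were called most at 24 h, when 47.9% of all genes were called and 66.5% of those calls were lower. At 2 h and 6 h no marker list had more than 3 calls. Of 10 cardiomyocyte markers 1 was higher and 7 lower at 24 h, and their summed level was 697 to 760 multiples in 24 h cells and 821 to 873 in control cells. None of these 10 was at background. Of 10 macrophage and leukocyte markers 10 were lower at 24 h, with a median of -1.37 and a summed level of 8.22 to 9.26 in 24 h cells and 22.4 to 23.1 in control cells. The fibroblast list had 9 of 10 lower (summed level 124 to 144 in 24 h cells and 172 to 184 in control cells), the smooth muscle and pericyte list 1 higher and 6 lower (30.3 to 32.0 in 24 h cells and 36.5 to 36.8 in control cells), and the endothelial list 1 higher and 6 lower (2.63 to 2.91 in 24 h cells and 3.50 to 3.71 in control cells). Of 10 skeletal muscle genes 5 were tested and all 5 were lower at 24 h (15.5 to 17.3 in 24 h cells and 24.9 to 28.5 in control cells). All markers of the first 5 lists were above background in some arrays, and 3 of the skeletal muscle list in none. These counts depended on slide and scaling. The model with slide gave the cardiomyocyte list 0 higher and 1 lower, the macrophage list 0 and 9, the fibroblast list 0 and 5, the smooth muscle list 0 and 4, the endothelial list 1 and 3 and the skeletal muscle list 0 and 2. With spike-in scaling they had 2 and 0, 0 and 9, 1 and 0, 1 and 2, 1 and 0, and 0 and 2 in the same order, and the median of the macrophage list was -0.96. In bulk cultures fewer cells of a type and less RNA per cell cannot be told apart, and the part of these shifts in the 24 h results was not tested.

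Scaling bears on all of these changes, since it sets the zero. Of the genes called at 2, 6 and 24 h, 66.9%, 71.1% and 66.5% were lower, beside 49.4%, 28.9% and 28.3% with centring on the array median, 63.1%, 49.4% and 46.7% with quantile normalization and 24.5%, 1.0% and 12.7% with spike-in scaling. The median of all genes moved to 0.19, 0.41 and 0.32 with spike-in scaling and to 0.11 at 24 h with centring on the array median. The median of the 9 tested genes at 24 h was 1.18 with centring on the array median, 1.06 with quantile normalization, 1.39 with spike-in scaling and 0.95 with slide in the model. That median of the 9 lay 1.07 above the median of all genes as reported, a distance that scalings by 1 value per array cannot change, and 1.04 above it with quantile normalization.

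**Figure D4:**
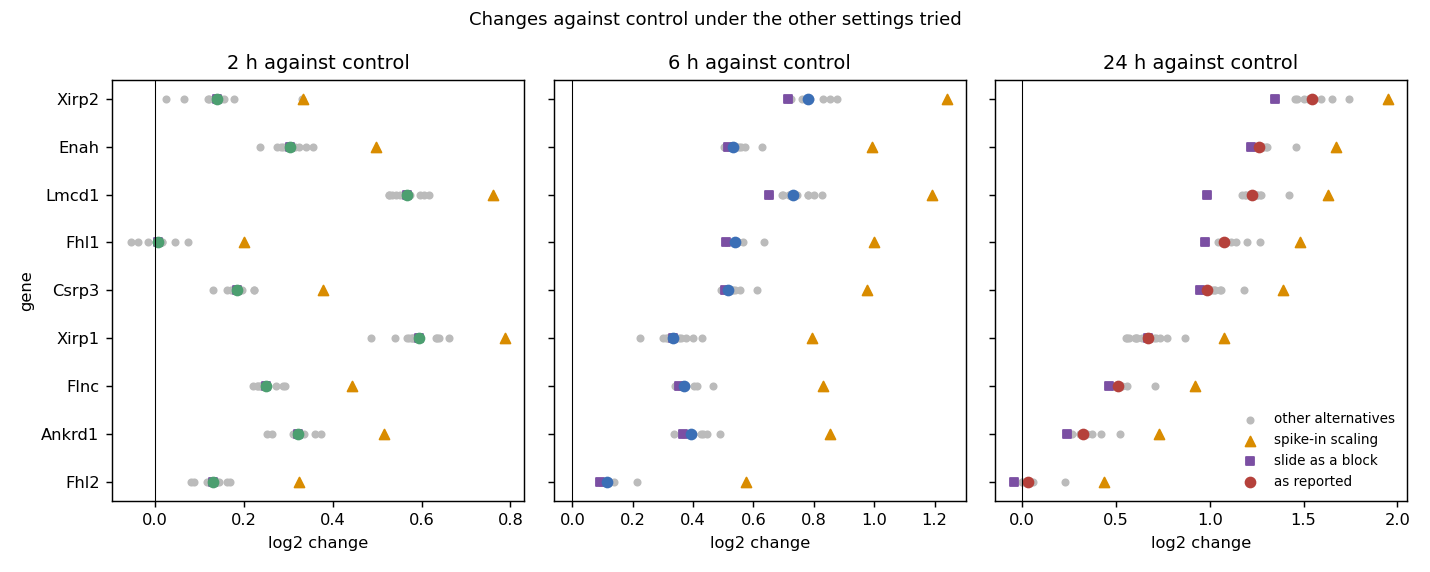
Log2 change against control (horizontal axis) of the 9 tested genes at 2, 6 and 24 h (panels) as reported (large dot), with slide as a block (square), with spike-in scaling (triangle) and under the other alternatives including those that leave out 1 array (grey dots). Spike-in scaling moves every gene to the right; at 24 h slide as a block leaves Xirp1 at 0.67, lowers Lmcd1 to 0.98 and puts Fhl2 on the other side of 0.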

How the data were processed

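Total RNA labelled with Cy3 was hybridised to 12 Agilent rat arrays with 58717 spots each. Feature Extraction 11.0.1.1 (Agilent) made the spot values, per the file headers; per the submitters' processing notes it was 10.7.3.1. The processed signal is, per the file headers, a background-subtracted intensity with no scaling between arrays, and the background and outlier flags are other values of 0 or 1 per spot, also per the file headers. The authors' deposited series matrix holds a linear intensity whose scaling between arrays is not stated (column medians 7.02 to 7.14 on the log2 scale), so it served as an alternative.

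Outlier spots (224 to 359 per array) were left out, spots of 1 probe were averaged on the log2 scale, and each array's 75th percentile was subtracted. Probes flagged well above background throughout at least 1 group were kept (18997 of 30367), with the probe of highest mean signal for each gene. A mean per group was fitted over all 12 arrays with limma 3.58.1 in R 4.3.3 (lmFit, eBayes), two-sided, with Benjamini-Hochberg adjustment over 14376 genes; errors beside log2 changes are standard errors. The fit was tested on simulated data. The number of arrays limits the precision. The p-values set differences of group means against the spread between these arrays, and whether that spread covers separate isolations is not stated.

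The members and lists were chosen with earlier results of these data known. All members and tested paralogues could be named (the result of 1 is not reported here), and from each other list up to 4 called genes with the largest change at each time. Alternatives were other scalings, background corrections, filters, probe choices, slide and replicate blocks, and leaving out each array; the second probes of Xirp1 and Fhl1 were chosen after seeing the data. Replicate numbers did not pair the samples, with correlations of same-numbered deviations between -0.108 and 0.103. Promoters came from RefSeq; Ankrd1 and Csrp3 promoters were not used here.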

Additional observations from a re-analysis of the deposited data

Results flagged for a closer look

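Differences between stretch times that passed the test are listed here, because the change against control then differed between times. From 2 h to 6 h these were Xirp2 (0.64 on the log2 scale, adjusted p = 0.0261), Enah (0.23, adjusted p = 0.0490), Csrp3 (0.33, adjusted p = 0.00719) and Fhl1 (0.53, adjusted p = 0.00259). From 6 h to 24 h they were Xirp1 (0.34, adjusted p = 0.0372), Xirp2 (0.76, adjusted p = 0.00437), Enah (0.73, adjusted p = 3.03e-05), Csrp3 (0.47, adjusted p = 1.23e-04), Fhl1 (0.53, adjusted p = 1.65e-04) and Lmcd1 (0.49, adjusted p = 0.00160). From 2 h to 24 h they were Xirp2 (1.41, adjusted p = 4.43e-05), Enah (0.96, adjusted p = 2.12e-06), Flnc (0.26, adjusted p = 0.00203), Csrp3 (0.80, adjusted p = 1.64e-06), Fhl1 (1.07, adjusted p = 8.49e-07) and Lmcd1 (0.66, adjusted p = 1.12e-04). Slide as a block ended some of these calls. From 2 h to 6 h it did so for Xirp2 (0.575, adjusted p = 0.084) and Enah (0.21, adjusted p = 0.131). From 6 h to 24 h Xirp1 (0.34, adjusted p = 0.238), Xirp2 (0.63, adjusted p = 0.112) and Lmcd1 (0.33, adjusted p = 0.0691) lost theirs. From 2 h to 24 h Flnc (0.21, adjusted p = 0.183) and Lmcd1 (0.42, adjusted p = 0.0525) did. Spike-in scaling ended the calls of Enah and Csrp3 from 2 h to 6 h and of Flnc from 2 h to 24 h. From 6 h to 24 h it ended those of Xirp1, Csrp3, Fhl1 and Lmcd1. All are from limma with Benjamini-Hochberg adjustment and share arrays with one another. Each of the comparisons that involve 24 h is also, in full or in part, a comparison between slides.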

How the results depend on the processing

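Of the changes of single members under all alternatives, 905 kept direction and call, 72 lost the call, 9 gained it and 22 turned sign. All 22 were values that were not called. The number of members called at 2 h (6) was 2 with spike-in scaling, 3 within slide 1 alone and 2 with only the 2 groups in the fit. From 2 h to 6 h (4) it was 2 with spike-in scaling, with no filter, with slide as a block, within slide 1 alone and with only the 2 groups, and 2 to 4 when 1 array was left out. From 6 h to 24 h (6) it was 2 with spike-in scaling, 3 with slide as a block and 1 within slide 2 alone, whose single 6 h array is assumed to vary like the others. From 2 h to 24 h (6) it was 4 with slide as a block, where Flnc and Lmcd1 lost their calls. The members called against control numbered 7 to 9 at 6 h and 6 to 9 at 24 h under every alternative run; leaving out 1 array gave 4 to 5 at 2 h, 7 at 6 h and 8 at 24 h.

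Over all genes, spike-in scaling gave 184 calls at 2 h (1343 as reported), 4938 at 6 h (2430), 354 from 2 h to 6 h (1520), 1003 from 6 h to 24 h (3586) and 2176 from 2 h to 24 h (6939). No filter gave 671 at 2 h, 1416 at 6 h and 458 from 2 h to 6 h, and normexp 620 in the last. Slide as a block gave 1611 at 6 h, 2044 at 24 h (6888), 603 from 2 h to 6 h, 1093 from 6 h to 24 h and 1795 from 2 h to 24 h. Slide 1 alone gave 810 at 2 h, 1357 at 6 h and 230 from 2 h to 6 h, slide 2 alone 231 from 6 h to 24 h, and fits of only the 2 groups 479 at 2 h and 372 from 2 h to 6 h. Leaving out 1 array gave 647 to 1031 at 2 h, 1193 to 2093 at 6 h, 334 to 1368 from 2 h to 6 h and 2386 to 3153 from 6 h to 24 h. The cause was not tested.

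Signs turned for Ankrd1 from 2 h to 24 h with the array median (0.16), quantile normalization (0.17) and spike-in scaling (0.21), and from 6 h to 24 h with the array median (0.0283). Fhl1 at 2 h was -0.0538 with quantile normalization. Fhl2 was 0.0563 with the array median and 0.11 with spike-in scaling from 2 h to 24 h, 0.0132 with the array median from 6 h to 24 h, and -0.0452 at 24 h with slide as a block. From 2 h to 6 h Fhl2 was 0.0432 with the array median, 0.0182 with quantile normalization, 0.25 with spike-in scaling and 0.0031 with the series matrix. Xirp1 was -0.0117 with normexp from 2 h to 24 h and 0.0040 with spike-in scaling from 2 h to 6 h. With 1 array left out, Ankrd1 from 2 h to 24 h ran from -0.0116 to 0.0216, Fhl1 at 2 h from -0.0382 to 0.0752, Fhl2 at 24 h from -0.0029 to 0.0584 and Fhl2 from 2 h to 6 h from -0.0467 to 0.0292.

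With replicate number as a block, 5, 7 and 8 members and 1033, 2198 and 6638 genes were called at 2, 6 and 24 h. That block ended the call of Csrp3 at 2 h (adjusted p = 0.0768) and of Enah from 2 h to 6 h (adjusted p = 0.0755) and changed no other call of a member. The second probes of Xirp1 and Fhl1 changed only the call of Xirp1 from 6 h to 24 h (0.25, adjusted p = 0.171).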
